A study of Mus musculus with 4 samples.

Results

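The cytosolic sulfotransferases are the soluble enzymes that move a sulfonate group from the donor PAPS onto small molecules. In mouse liver, 10 of them were followed, chosen by name: Sult2a7 (listed on the array under its older name Gm7231), Sult2a2, Sult2b1, Sult1a1, Sult1b1, Sult1d1, Sult1e1, Sult1c2, Sult3a1 and Sult5a1. They were read by 13 of the 39429 probes on the array, and 7 of the 10 genes were bright enough to be tested, out of 19672 tested genes of 31709 named. The members were chosen with these data known, so every difference between genotypes given for them is a description.

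The tested samples were 4 liver samples of male IlrunKO mice, which lack Ilrun in the whole body. The controls were 4 liver samples of male wild-type (WT) mice. All mice were of the C57BL/6 strain, ate chow and had fasted for 4 h when the liver was taken. Each of 4 two-colour Agilent arrays held 1 IlrunKO and 1 WT liver, with IlrunKO labelled by Cy5 (red) on arrays 1 and 2 and by Cy3 (green) on arrays 3 and 4. The labels do not say whether a sample is 1 mouse or a pool, nor whether the WT mice were littermates. If a sample is not a separate mouse, the p-values measure a spread that is partly technical.

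Sulfonation makes a lipophilic molecule more soluble in water and usually ends its action, so it serves in the clearance of drugs, thyroid hormone, steroids and bile acids. Each subfamily has its preferred substrates: the SULT1 enzymes act mostly on phenols, among them catecholamines and oestrogens, and the SULT2 enzymes on hydroxysteroids and bile acids. In mice the liver expression of several SULT genes depends on sex, and several Sult2a genes and Sult3a1 are known for higher levels in females. Nuclear receptors that sense drugs and bile acids, such as CAR and PXR, are known regulators of hepatic sulfotransferase genes.

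The array reads each gene through 60-base probes, and the copies in the Sult2a cluster are so alike that the probe sequence decides what can be told apart. The Sult2a7 probe, read on the minus strand at chr7:15050514-15050573 (mm9), is shown because the main result rests on it alone. It shared a run of at most 12 bases with any other probe on the array, and 7 probes reached that length. Probes were compared only with each other, and those of other Sult2a genes can lie elsewhere along their transcripts. Whether the transcript of another copy binds the Sult2a7 probe was therefore not tested. The probes of Sult2a2 (chr7:14364727-14364786, plus strand) and Sult2a6 (chr7:14811213-14811272, minus strand) are shown as a case of a longer shared run. Capitals mark the 28 bases that they hold in common. The array design lists transcripts of several copies for each of these, so their signals cannot be assigned to 1 copy. The Sult5a1 probe (chr8:125666951-125667010) and the brighter Sult1d1 probe (chr5:87985008-87985067), both on the minus strand, are shown because the level of Sult5a1 was the most variable of the tested members among WT livers, and because the second Sult1d1 probe gave other ratios array by array. All are designed probes as given in the array files, 5′ to 3′. Exon and intron positions were not assigned, because the annotation given for these genes is not in mm9.

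Sult2a7: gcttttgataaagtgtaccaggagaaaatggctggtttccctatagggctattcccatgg
Sult2a2: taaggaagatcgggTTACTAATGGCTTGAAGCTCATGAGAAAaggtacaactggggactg
Sult2a6: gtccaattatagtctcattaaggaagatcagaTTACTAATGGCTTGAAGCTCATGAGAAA
Sult5a1: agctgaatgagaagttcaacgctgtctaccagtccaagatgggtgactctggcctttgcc
Sult1d1: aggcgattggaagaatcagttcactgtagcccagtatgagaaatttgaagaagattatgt

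The share of probes well above background ran from 60.0% to 67.3% over the 8 channels, and no spot was saturated. The number of arrays limits the precision of every value. The deleted gene was low as labelled: the brighter Ilrun probe had a log2 ratio of -4.21 ± 0.24 (SD, n = 4 arrays; limma, adjusted p = 0.00319), and the other probe, well above background in 4 WT channels but in 1 IlrunKO channel, had a measured ratio of -2.15 ± 0.34 close to the floor in IlrunKO livers. Levels below are log2 intensities after normalisation, with a floor near 6, and are compared only within a probe. Ratios are log2 of IlrunKO over WT. A gene rose or fell where limma gave an adjusted p under 0.05 over all tested genes.

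Of the 7 tested sulfotransferase genes, 1 rose, none fell and 6 did not pass the test. Over all tested genes, 1.37% passed in either direction and 0.717% rose, and nothing is read from the members' count, since the members were chosen on these values. At an unadjusted p under 0.05, 5 of the 7 passed, against 20.5% of all tested genes. The median log2 ratio of the 7 was 0.18, against -0.0014 over all tested genes. Their ratios ran from -0.70 for Sult5a1 to 2.60 for Sult2a7, with 5 above 0 and 2 below.

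**Figure D1:**
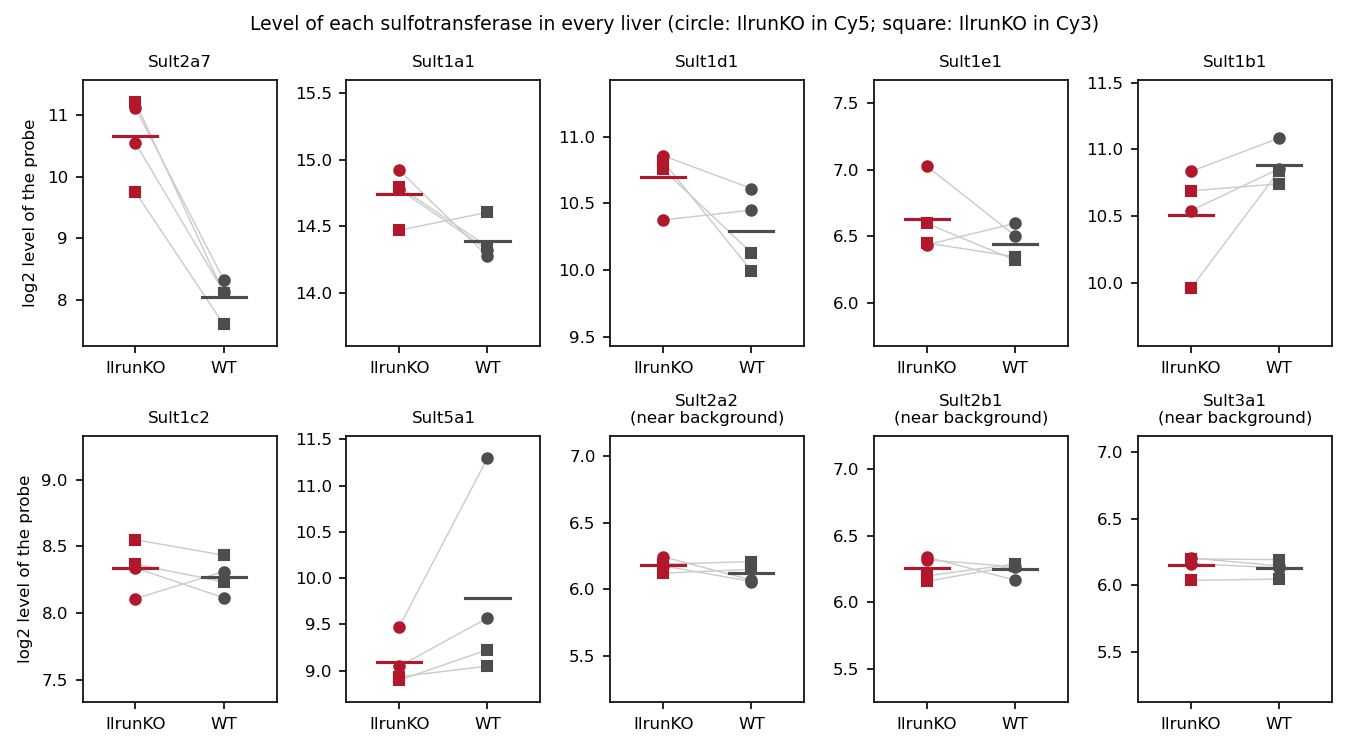
Log2 level of the brightest probe of each of the 10 sulfotransferase genes in 4 IlrunKO livers (red, left) and 4 WT livers (grey, right), with grey lines joining the pair on an array and short bars at the mean. Sult2a7 is the panel in which the genotypes lie apart, 1 WT liver stands high for Sult5a1, and the 3 panels named as near background lie close to the floor. Each panel has its own vertical axis.

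Sult2a7 belongs to the hydroxysteroid sulfotransferase subfamily. Its probe stood at 10.54, 11.11, 11.21 and 9.75 in IlrunKO livers 1 to 4, against 8.14, 8.33, 8.12 and 7.61 in WT livers 1 to 4. The lowest IlrunKO liver lay 1.42 above the highest WT liver, so the genotypes did not overlap. Over all tested genes, 8.89% had levels that did not overlap, and Sult2a7 was the 1 such gene among the tested members.

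The ratio of Sult2a7 was 2.40, 2.78, 3.09 and 2.14 on arrays 1 to 4. This is a 5.29, 6.86, 8.50 and 4.41-fold higher level in the IlrunKO liver of each pair. The mean log2 ratio was 2.60 ± 0.42 (SD, n = 4), a 6.07-fold rise with a 95% interval on the log2 scale of 2.16 to 3.04 (limma, adjusted p = 0.0301). It was the second highest ratio among the 19672 tested genes. The ratio averaged 2.59 on the arrays with IlrunKO in Cy5 and 2.61 on those with IlrunKO in Cy3, so it was nearly the same in both dye orientations. The probe was well above background in all 4 IlrunKO and all 4 WT channels.

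The SD of the level of Sult2a7 was 0.67 among IlrunKO livers and 0.31 among WT livers. In WT livers, 96.2% of tested genes had a smaller SD than Sult2a7, and the median SD of all tested genes there was 0.11. The pair on array 4 had the lowest level in both genotypes, at 9.75 in the IlrunKO liver and 7.61 in the WT liver. The call was lost in 4 of 17 alternative settings, with the ratio at 2.51 under median centring in place of loess (adjusted p = 0.0669) and at 2.60 with a trended and robust variance (adjusted p = 0.258). Without array 3 the ratio was 2.37 (adjusted p = 0.0947) and without array 4 it was 2.84 (adjusted p = 0.118). The range over all 17 settings was 2.37 to 2.99, with adjusted p between 0.000494 and 0.258.

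In bulk liver, more cells of a type and more RNA per cell cannot be told apart. Markers of several cell types were set beside these values. All 6 stellate cell markers lay below 0 (median log2 ratio -0.31), and their summed intensity was 23800 to 34200 in IlrunKO livers and 35100 to 37200 in WT livers. All 6 Kupffer cell markers lay above 0 (median 0.38), with sums of 19000 to 26300 in IlrunKO livers and 15300 to 24500 in WT livers. Of 7 hepatocyte markers, 5 lay below 0 (median -0.36), with sums of 626000 to 999000 in IlrunKO livers and 760000 to 1060000 in WT livers. Some of them differed between the dye orientations, which also held different samples, so dye and sample cannot be told apart. Alb had 0.54 and 0.21 with IlrunKO in Cy5, and -1.07 and -1.11 with IlrunKO in Cy3. Trf had -0.24 and 0.35, then -1.37 and -1.23, while Apoa1 was below 0 on all 4 arrays. None of the markers of these 3 types passed the test. Of the 19, 13 had an unadjusted p under 0.05, against 20.5% of all tested genes.

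Of the adipocyte markers 4 of 7 were tested, and Cfd, which encodes the serum protease adipsin, rose by a log2 ratio of 3.82 ± 1.22 (SD, n = 4; limma, adjusted p = 0.0467). The other 3 tested markers did not pass: Car3 had 0.92 ± 0.67 (SD, n = 4, limma adjusted p = 0.158), Retn 0.14 and Fabp4 -0.11. The adipocyte sum was 100000 to 150000 in IlrunKO livers and 41600 to 89000 in WT livers. Most of that sum was Car3, with a mean log2 level of 16.94 in IlrunKO and 16.03 in WT livers, against 11.26 and 7.43 for Cfd. Adipoq, Lep and Plin1 were well above background in no channel. Cfd did not pass under median centring, with a trended and robust variance, or without array 3 or array 4. None of 4 tested cholangiocyte, 6 endothelial, 1 enterocyte and 4 keratinocyte markers passed. Of those 15, 4 had an unadjusted p under 0.05, against 20.5% of all tested genes. Endothelial sums were 20000 to 23700 in IlrunKO livers and 21600 to 24300 in WT livers. Cholangiocyte sums were 699 to 892 in IlrunKO livers and 700 to 880 in WT livers, with Cftr and Epcam below background. Enterocyte sums were 17100 to 24400 in IlrunKO livers and 11400 to 18800 in WT livers, with the defining markers Lct and Vil1 below background. Keratinocyte sums were 818 to 933 in IlrunKO livers and 888 to 1070 in WT livers, with Ivl below background. The part of cell composition in the sulfotransferase values was not tested.

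Sult2a7 lies in a cluster of Sult2a genes on chromosome 7, where 11 probes span 685.8 kb in mm9, 1 of them of another gene, Gm5585. The probe nearest to that of Sult2a7, 54.2 kb away, reads Sult2a8, a bile acid sulfotransferase of mouse liver. Sult2a8 stood at 14.47, 14.21, 14.46 and 14.69 in IlrunKO livers, against 14.84, 14.77, 14.59 and 14.56 in WT livers. Its ratio was below 0 on arrays 1 to 3 and above 0 on array 4, and the genotypes overlapped. The mean was -0.23 ± 0.30 (SD, n = 4; limma, adjusted p = 0.166), so it did not pass the test.

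**Figure D2:**
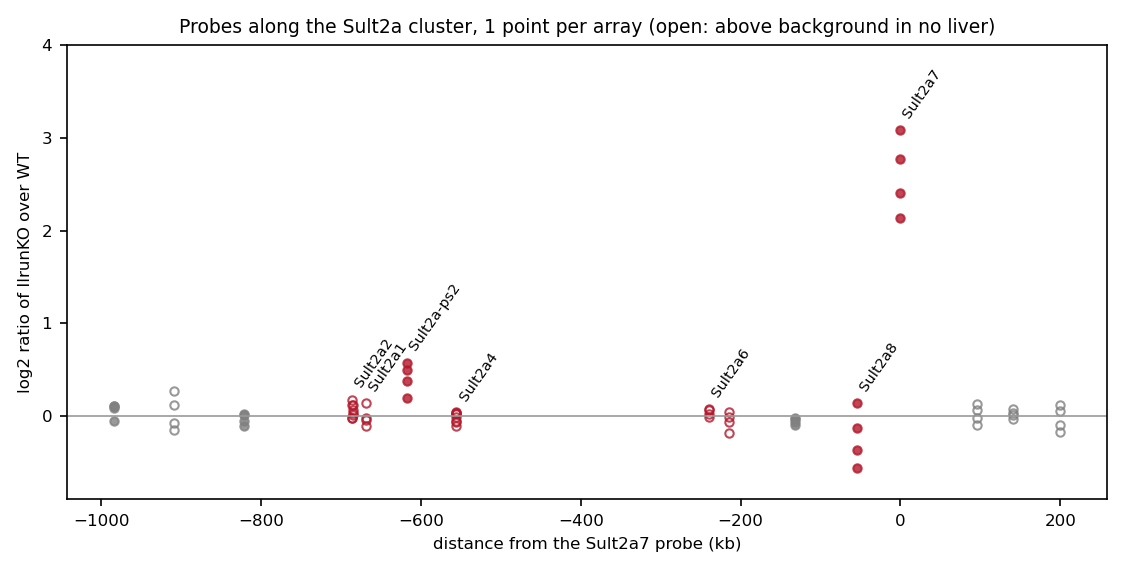
Log2 ratio of IlrunKO over WT on each of the 4 arrays, against the distance in kb from the Sult2a7 probe, for probes along and around the Sult2a cluster (red, Sult2a probes; grey, other probes; open points, well above background in no channel). The 4 points of Sult2a7 lie between 2.14 and 3.09, and those of all other probes drawn lie between -0.56 (Sult2a8) and 0.57 (Sult2a-ps2).

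The pseudogene Sult2a-ps2, on the far side of Sult2a4 from Sult2a7, stood at 6.89, 7.17, 7.05 and 6.93 in IlrunKO livers, against 6.70, 6.60, 6.56 and 6.56 in WT livers. All 4 IlrunKO livers lay above all 4 WT livers, close to the floor of the scale. The ratio was 0.41 ± 0.17 (SD, n = 4), and it did not pass the test (limma, adjusted p = 0.0886).

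Sult2a2, another hydroxysteroid sulfotransferase of the cluster, was not well above background in any channel at either of its 2 probes. Its probe shown above read 6.24, 6.18, 6.19 and 6.12 in IlrunKO livers, against 6.07, 6.06, 6.21 and 6.15 in WT livers. Its second probe read 6.17, 6.20, 6.15 and 6.17 in IlrunKO livers, against 6.05, 6.14, 6.14 and 6.14 in WT livers. The genotypes overlapped at the first and lay apart by 0.01 at the second, and both lie at the floor, so no fold is given. The probes of Sult2a1, Sult2a4 and Sult2a6 also stayed below that limit in every channel, and no probe carried the names Sult2a3 and Sult2a5.

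Sult2b1 sulfonates cholesterol and related steroids and is best known from the skin. It read 6.34, 6.32, 6.20 and 6.16 in IlrunKO livers, against 6.16, 6.27, 6.29 and 6.27 in WT livers, and was well above background in 1 IlrunKO and 1 WT channel. Sult3a1, an amine sulfotransferase in mice, read 6.16, 6.20, 6.04 and 6.20 in IlrunKO livers, against 6.13, 6.14, 6.05 and 6.19 in WT livers, and was above background in no channel. Both genes overlapped between genotypes at the floor of the scale. Of the tested members Sult1e1 had the fewest channels above background, 3 in IlrunKO and 4 in WT, and of the untested members Sult2b1 had the most.

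Sult1a1 is the main phenol sulfotransferase of the liver and was read by 2 probes that overlap by 8 bases. The brighter stood at 14.78, 14.92, 14.80 and 14.47 in IlrunKO livers, against 14.32, 14.28, 14.35 and 14.61 in WT livers. IlrunKO was higher on arrays 1 to 3 and lower on array 4, so the genotypes overlapped. Its ratio was 0.45, 0.64, 0.45 and -0.13, with a mean of 0.35 ± 0.34 (SD, n = 4), a 95% interval of 0.07 to 0.63 and an adjusted p of 0.175 (limma). Without array 3 the mean was 0.21, and under median centring it was 0.20.

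The dimmer Sult1a1 probe stood at 14.69, 14.86, 14.91 and 14.48 in IlrunKO livers, against 14.40, 14.40, 14.29 and 14.42 in WT livers. Here all 4 IlrunKO livers lay above all 4 WT livers, by a gap of 0.07. The ratio was 0.29, 0.46, 0.62 and 0.07, with a mean of 0.36 ± 0.24 (SD, n = 4), and it did not pass the fit over all probes (limma, adjusted p = 0.156). Without array 3 that mean was 0.22, and under median centring it was 0.20. Over all tested probes, 1.51% passed. The mean of the brighter probe minus that of the dimmer was -0.0056, while they disagreed on the sign of array 4.

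Sult1d1, which acts on catecholamines in mice, was read by 2 probes 1.34 kb apart. The brighter stood at 10.38, 10.86, 10.81 and 10.76 in IlrunKO livers, against 10.45, 10.61, 9.99 and 10.13 in WT livers. IlrunKO was lower on array 1 and higher on the other 3 arrays, and the genotypes overlapped. The ratio was -0.07, 0.25, 0.82 and 0.63, with a mean of 0.40 ± 0.40 (SD, n = 4), a 95% interval of 0.21 to 0.60 and an adjusted p of 0.083 (limma), the lowest of the 6 members that did not pass. With no dye term the mean was the same and the adjusted p was 0.283 (limma).

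The dimmer Sult1d1 probe stood at 8.10, 8.37, 7.77 and 7.64 in IlrunKO livers, against 7.73, 7.64, 7.38 and 7.45 in WT livers. Its ratio was above 0 on all 4 arrays, at 0.37, 0.73, 0.39 and 0.19. The mean was 0.42 ± 0.23 (SD, n = 4; limma over probes, adjusted p = 0.0826). Both probes thus gave nearly the same mean, but array by array they parted with the dye. The brighter probe read lower than the dimmer one by 0.44 and 0.49 with IlrunKO in Cy5, and higher by 0.43 and 0.44 with IlrunKO in Cy3. The Sult1a1 probes parted less far and in the opposite order: the brighter minus the dimmer was 0.17 and 0.18 with IlrunKO in Cy5, and -0.18 and -0.20 with IlrunKO in Cy3. Both probes of a gene were read in the same RNA on each array. The cause of this split was not tested. The dye term passed the limma test for none of the members and for 0 of all 19672 tested genes, so nothing is read from its not passing.

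**Figure D3:**
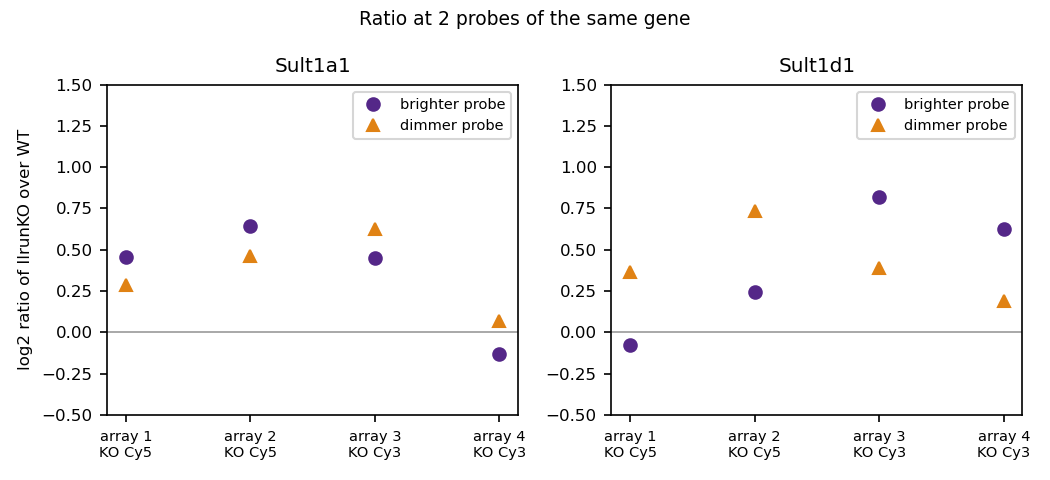
Log2 ratio of IlrunKO over WT on arrays 1 to 4 at the brighter probe (circles) and dimmer probe (triangles) of Sult1a1 and Sult1d1. The order of the probes turns between arrays 1 and 2 (IlrunKO in Cy5) and arrays 3 and 4 (IlrunKO in Cy3) in both genes.

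Sult1b1, which acts on thyroid hormones, stood at 10.54, 10.83, 10.69 and 9.96 in IlrunKO livers, against 10.86, 11.09, 10.74 and 10.84 in WT livers. The fourth IlrunKO liver lay lowest, and the other 3 lay within 0.31 of the WT liver on the same array. The ratio was -0.31, -0.25, -0.05 and -0.88. The mean was -0.37 ± 0.36 (SD, n = 4), below 0 on all 4 arrays, and the gene did not pass the test (limma, adjusted p = 0.236). Without array 4 the mean was -0.17, and without array 3 it was -0.58.

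Sult1e1 is the oestrogen sulfotransferase. It stood near the floor, at 6.44, 7.02, 6.60 and 6.45 in IlrunKO livers, against 6.60, 6.50, 6.32 and 6.35 in WT livers. The second IlrunKO liver was the highest and the genotypes overlapped. The ratio was -0.16, 0.52, 0.28 and 0.10, with a mean of 0.18 ± 0.29 (SD, n = 4; limma, adjusted p = 0.467). Over the alternative settings it moved between 0.01 and 0.62, the lower value being that without array 2.

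Sult1c2, a member of the SULT1 group, stood at 8.34, 8.11, 8.37 and 8.55 in IlrunKO livers, against 8.11, 8.31, 8.23 and 8.43 in WT livers. The genotypes overlapped over nearly their whole ranges. The ratio was 0.22, -0.20, 0.13 and 0.12, with a mean of 0.07 ± 0.19 (SD, n = 4) and a 95% interval of -0.14 to 0.28 (limma, adjusted p = 0.701). Its sign turned to -0.01 under median centring and to -0.04 without array 1.

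Sult5a1 stood at 9.48, 9.05, 8.90 and 8.93 in IlrunKO livers, against 11.30, 9.57, 9.23 and 9.05 in WT livers. The first WT liver was far above the other 3 WT livers, and the IlrunKO liver on the same array was the highest of its genotype. The ratio was -1.82, -0.52, -0.33 and -0.12, below 0 on all 4 arrays. The mean was -0.70 ± 0.77 (SD, n = 4), with a 95% interval of -1.26 to -0.13, and the gene did not pass the test (limma, adjusted p = 0.179). The SD among WT livers was 1.03, and 99.9% of tested genes had a smaller one. Without array 1 the mean was -0.37 (adjusted p = 0.101). Without array 2 it was -1.02 and passed (adjusted p = 0.0224).

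**Figure D4:**
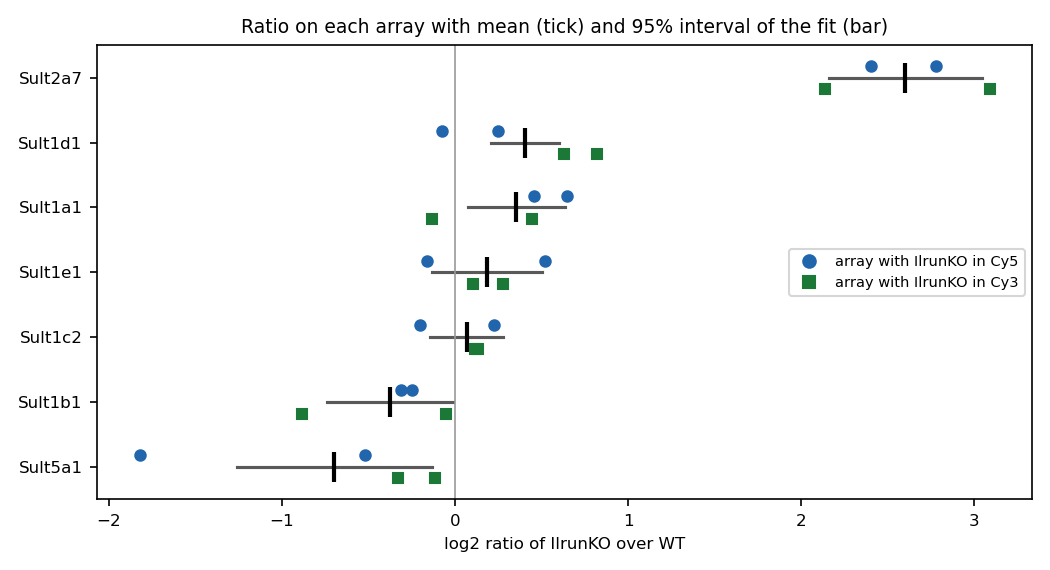
Log2 ratio of IlrunKO over WT for the 7 tested sulfotransferase genes on each array (circles, IlrunKO in Cy5; squares, IlrunKO in Cy3), with the mean (tick) and the 95% interval of the limma fit (bar). Sult2a7 lies at 2.60, apart from the other 6 genes, whose means lie between -0.70 and 0.40.

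Of the 7 tested members, 3 had a ratio of 1 sign on all 4 arrays, namely Sult2a7, Sult1b1 and Sult5a1. Over all tested genes this share was 23.2%. Of the other named sulfotransferases of the mouse, 9 had a probe and 2 were tested, Sult2a8 and Sult4a1, a brain enzyme with a ratio of -0.04 ± 0.12 (SD, n = 4; limma, adjusted p = 0.76). Sult1c1, Sult2a1, Sult2a4, Sult2a6, Sult3a2, Sult6b1 and Sult6b2 were too dim to be tested.

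**Figure D5:**
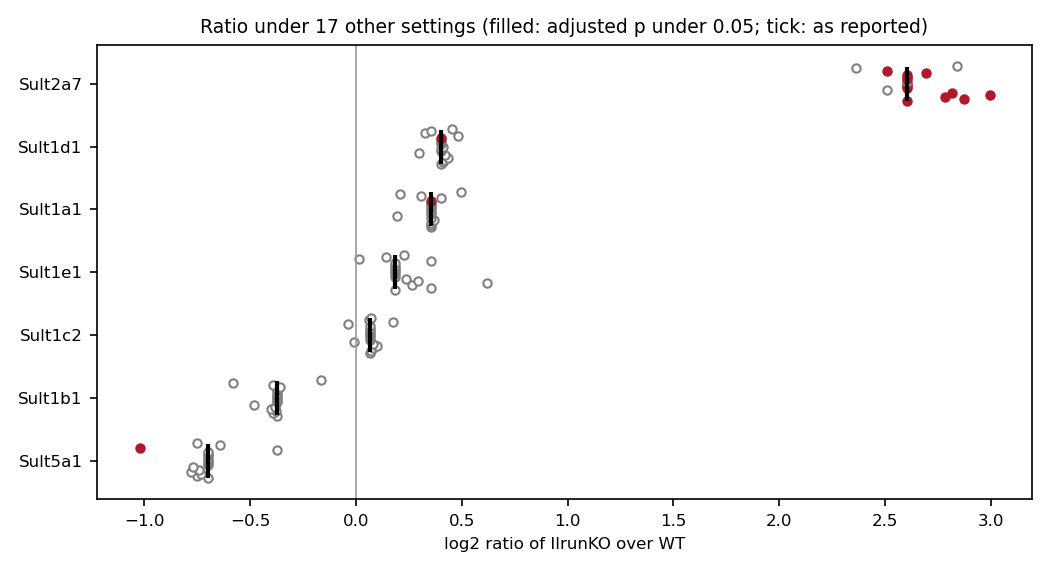
Log2 ratio of IlrunKO over WT for the 7 tested sulfotransferase genes as reported (tick) and under 17 alternative settings (points, filled where the adjusted p was under 0.05). Sult2a7 stays between 2.37 and 2.99, and Sult1c2 is the gene with points on both sides of 0.

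Genes that supply or handle sulfate and PAPS were compared next, since every sulfotransferase draws on the same sulfate donor. The list covered sulfate transport, PAPS synthesis, PAPS transport and the breakdown of spent PAPS. Of its 9 tested genes none passed in either direction, and none had an unadjusted p under 0.05 (limma). The median log2 ratio of the 9 was 0.05. Papss2, which makes PAPS, had a ratio of 0.14 ± 0.14 (SD, n = 4; limma, adjusted p = 0.325). Slc26a1, a sulfate transporter of the hepatocyte membrane, had -0.26 ± 0.53 (SD, n = 4; limma, adjusted p = 0.267), and Slc35b2, which carries PAPS into the Golgi, had 0.17 ± 0.26 (SD, n = 4; limma, adjusted p = 0.41).

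Of 10 tested genes that make cysteine or lead its sulfur to sulfate or taurine, none passed. Among the 10, 4 had an unadjusted p under 0.05 (20.5% over all tested genes), and the median log2 ratio of the 10 was -0.08. Suox, the oxidase that turns sulfite into sulfate, had 0.43, 0.10, 0.93 and 0.66 on arrays 1 to 4. All 4 were above 0, and the mean was 0.53 ± 0.35 (SD, n = 4; limma, adjusted p = 0.0655). Csad, which leads cysteine sulfur to taurine, had -1.18, -2.25, -1.26 and -0.56. All 4 were below 0, and the mean was -1.31 ± 0.70 (SD, n = 4; limma, adjusted p = 0.0696). Cbs, which starts the making of cysteine from homocysteine, had -0.25 ± 0.18 (SD, n = 4; limma, adjusted p = 0.18). Of 11 sulfatases and tyrosine sulfotransferases none passed and 2 had an unadjusted p under 0.05. Their median was 0.03, and the 3 with the smallest p were Ids at 0.16, Tpst2 at -0.13 and Tpst1 at 0.10.

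Among nuclear receptors and their partners known to act on sulfotransferase genes, none of 14 tested passed, with a median log2 ratio of 0.07. Of the 14, 4 had an unadjusted p under 0.05, against 20.5% of all tested genes. The smallest p was that of Rora, the receptor ROR alpha, at -0.29 ± 0.18 (SD, n = 4; limma, adjusted p = 0.0608), below 0 on all 4 arrays. Ppara, the fatty acid sensor, had -0.18 and Hnf4a, a hepatocyte regulator, had -0.13. Of 11 tested targets of CAR and PXR none passed and 5 had an unadjusted p under 0.05, with a median of 0.01. Cyp2b10, the classic CAR target, had 1.86, 0.46, 2.66 and 2.22 on arrays 1 to 4, with a mean of 1.80 ± 0.95 (SD, n = 4; limma, adjusted p = 0.0511). It was higher in the IlrunKO liver of every pair, least so on array 2. Aldh1a1, a retinal dehydrogenase, had 0.77 ± 0.74 and Alas1, the first enzyme of haem synthesis, had -0.72 ± 0.41 (SD, n = 4 each).

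Sex-biased liver genes were compared because several hepatic sulfotransferases are sex-biased in mice, and all animals here were male. Of 11 tested female-biased genes none passed and 4 had an unadjusted p under 0.05 (20.5% over all tested genes). The 11 had a median log2 ratio of 0.23, with 9 above 0. Cyp2b9, a female-biased cytochrome P450, had 1.45, 0.36, 1.61 and 1.39, above 0 on all 4 arrays (mean 1.20 ± 0.57, SD, n = 4; limma, adjusted p = 0.0639). Cyp2a4 had 0.35 ± 0.13 and Cyp17a1 had -0.22 ± 0.17 (SD, n = 4 each).

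Of 12 tested male-biased genes 1 rose, 1 fell and 10 did not pass, with a median of -0.08. Mup20, a major urinary protein, rose by 1.68 ± 1.22 on the log2 scale (SD, n = 4; limma, adjusted p = 0.0346), at 2.53 and 2.88 with IlrunKO in Cy5 and 0.29 and 1.04 with IlrunKO in Cy3. Nat8, an acetyltransferase that makes mercapturic acids, had -0.47, -0.60, -0.98 and -1.01 and fell, with a mean of -0.76 ± 0.27 (SD, n = 4; limma, adjusted p = 0.0301). Susd4 had 0.56 ± 0.27, Slco1a1, an organic anion carrier, had -0.88 ± 0.51, and Elovl3, a fatty acid elongase, had -1.24 ± 0.73 (SD, n = 4 each), none of them passing. Mup20 and Nat8 did not pass under median centring, with a trended and robust variance, or without array 3 or array 4. With no dye term, 1 of the 87 tested genes in the sulfation, receptor and sex-bias lists passed. At least 1 of Mup20 and Nat8 was therefore lost there. Of 9 genes of growth hormone signalling through STAT5 none passed, with a median of -0.04. Of the 9, 1 had an unadjusted p under 0.05, against 20.5% of all tested genes. Socs2, a feedback inhibitor of that signal, had a mean of -0.35 ± 1.01 (SD, n = 4), above 0 on both arrays with IlrunKO in Cy5 and below 0 on both with IlrunKO in Cy3. Stat5b had -0.15 ± 0.28 and Stat5a had 0.29 ± 0.41 (SD, n = 4 each).

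The genes whose log2 levels followed Sult2a7 most closely over the 8 channels, among 19562 with a value in all of them, were Ffar4 (r = 0.988), Rpl12, Ift172 and D17Zt10e (each r = 0.981) and Acad10 (r = 0.98). In all, 48 genes had r over 0.95. The 8 points fall into 2 genotypes and share their array in pairs, so a gene that differs between genotypes comes out high by this measure. The ratios of these genes were small beside that of Sult2a7: 0.36 for Ffar4, a fatty acid receptor, 0.12 for Rpl12, a ribosomal protein, 0.39 for Ift172, a ciliary transport protein, 0.29 for D17Zt10e, and 0.25 for Acad10, an acyl-CoA dehydrogenase. None of these 5 passed the test (limma, adjusted p between 0.0609 and 0.234). Among the members, Sult1a1 had r = 0.81 with Sult2a7, Sult1d1 0.723, Sult1e1 0.598, Sult1c2 -0.00347, Sult1b1 -0.33 and Sult5a1 -0.405.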

How the data were processed

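RNA of 4 IlrunKO and 4 WT liver samples (500 ng each) was labelled and hybridised in pairs, per the labels. The authors used Agilent Feature Extraction, and the file headers give 10.10.1.1 as the version of its grid placement. They deposited the resulting intensity and log10 ratio (red over green) of each spot. A deposited value list holds log2 ratios whose direction is IlrunKO over WT on every array (checked against the scanner ratio, r = 0.955, 0.943, -0.942 and -0.951 on arrays 1 to 4). The medians of its columns are -0.039, -0.043, 0.038 and 0.035. Limma is named in the submitters' processing notes; how the listed values were scaled is not stated there.

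Mean and background median intensities were processed with limma 3.58.1 in R 4.3.3 (data.table package, version 1.17.8): normexp with offset 50, loess within arrays, 1377 control spots at weight 0, non-control spots marked as outliers (224 to 381 per array) left out. Probes were named through RefSeq, 26055 by accession and 4125 by symbol or synonym, and 9249 kept the files' name; the symbol Si was left out of the enterocyte markers because it names another gene here. The brightest probe stood for a gene and had to be well above background in at least 3 of 4 channels of a genotype. The model had a genotype and a dye term, with 2 residual and 2.83 prior degrees of freedom, a two-sided test and Benjamini-Hochberg adjustment over all tested genes. A difference in ratio between arrays 1 and 2 and arrays 3 and 4 goes into the dye term, not into the error. Each ratio pairs the livers that share an array and, in the labels, a replicate number. Levels were normalised between arrays with Aquantile. Named genes were every member and probe, the other sulfotransferases, and in each list the genes that passed and up to 3 more with the smallest p. The members and lists were chosen with earlier results of these data known.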

Additional observations from a re-analysis of the deposited data

Results flagged for a closer look

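Of 27 sets of 4 values checked (levels in IlrunKO livers, levels in WT livers and ratios, for each tested sulfotransferase probe), 1 held a sample farther from the others than Dixon's 95% critical value. At the dimmer Sult1a1 probe the third WT liver stood at 14.29, against 14.40, 14.40 and 14.42 in the other 3 WT livers. Chance puts about 5% of such sets past that value. The brighter Sult1a1 probe stood at 14.35 in the same liver, between the other WT values.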

How the results depend on the processing

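The count of all genes called (270 as reported) was 442 with no background correction, 80 with the processed signals, 450 with the deposited values, 1 with median centring, 0 with a trended and robust variance (limma; 3558 genes at an unadjusted p under 0.05), 597 in separate channels with no replicate block, 2485 with the array as a random replicate block (intraspot correlation 0.517), and 1 to 464 when an array was left out. It was 464 without array 1 (64.2% of them higher in IlrunKO, against 52.2% as reported), and 1 each without arrays 3 and 4. The sulfotransferase count (1) was 0 with median centring and with a trended and robust variance, 3 with the random replicate block, and 0 to 2 when an array was left out: 2 without array 2, and 0 without arrays 3 and 4. Sult1a1 and Sult1d1 passed with the random replicate block (ratios 0.35 and 0.40, adjusted p = 0.0281 and 0.0138) and in no other setting, at each of their 2 probes. Of the 87 tested genes in the other sulfation, receptor and sex-bias lists, 2 were called as reported, 1 with no dye term, 5 with no background correction, 5 with the deposited values, 0 with median centring and with a trended and robust variance, 8 in separate channels with no replicate block, 14 with the random replicate block, and 0 to 9 when an array was left out (9 without array 1, 6 without array 2 and 0 without arrays 3 and 4). The ratio of Sult1c2 reversed to -0.00918 with median centring and to -0.0388 without array 1, and ran from -0.0388 to 0.174 when an array was left out. Of the 7 ratios of tested members, the other 6 kept their sign in all 17 settings. With 4 arrays, leaving out 1 leaves 1 residual degree of freedom; otherwise the cause of these changes was not tested. Sult2a2, Sult2b1 and Sult3a1 could be fitted only with no filter on dim probes, where none passed, since their probes were not well above background in enough channels.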
